A study of Homo sapiens with 4 samples.

Results

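Distal CUT&RUN peaks of BRG1 that carried the M-CAT element, the DNA sequence bound by TEAD transcription factors, and no AP-1 site were examined in SW-13 cells. The M-CAT peaks were all peaks more than 1 kb from every annotated transcript start in which the 100 bp to either side of the midpoint held CATTCCT on either strand (AGGAATG when read on the other strand). They held neither TGACTCA nor TGAGTCA, the 2 spellings of the TPA response element (TRE) bound by AP-1. This rule uses sequence and position alone. It found 864 peaks among the 24212 of the iBRG1 list and 731 among the 25371 of the i∆HSA list, 1595 of 49583 in all.

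SW-13 comes from an adrenocortical carcinoma and makes neither BRG1 nor BRM, which are alternative motor subunits of SWI/SNF, a complex that moves nucleosomes. Individual clones carried a doxycycline-inducible BRG1 with a V5 tag, either wild type (iBRG1) or with its helicase/SANT-associated (HSA) domain deleted (i∆HSA), and all 4 samples, 2 per construct, were treated with doxycycline for 24 h. CUT&RUN directs a nuclease to the tagged protein with an antibody, here against V5, and the released DNA is sequenced. Each construct had 1 peak list and no value per replicate, so no value below has a replicate error, no test was made, and a difference between constructs cannot be told apart from a difference between clones or libraries. Intervals are 95% Wilson intervals unless another method is named and cover counting error over peaks, which are not replicates.

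TEAD factors (TEAD1 to TEAD4) are the DNA-binding partners of the coactivators YAP and TAZ at the end of the Hippo pathway, which controls growth, cell shape and adhesion. M-CAT was first described in the promoters of heart and skeletal muscle genes, and in many cultured cells TEAD and AP-1 factors occupy the same distal enhancers. BRG1 reads no defined sequence, and its HSA domain holds actin-related proteins in the complex. Leaving out windows with a TRE separates distal M-CAT peaks from those that also hold an AP-1 site at their centre. A sequence match is a description and does not show that a TEAD protein is bound there.

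Places where both constructs had an M-CAT peak of high score show how the element sits in these windows. The 5 below are a selection from the 10 best-ranked pairs, not the top 5, and are the central windows of iBRG1 peaks in build GRCh37 (hg19), written 5′ to 3′ on the plus strand, in lower case with each M-CAT in capitals. DAAM1 encodes a formin that assembles actin, PPP4R1 a regulatory subunit of protein phosphatase 4, KTN1 the kinesin-binding protein kinectin, RASAL2 a Ras GTPase-activating protein and ATF3 a stress-induced bZIP factor that can pair with AP-1 proteins. The PPP4R1 peak was intergenic, 28.6 kb from the nearest protein-coding transcript start, and the other 4 lay in introns of the named genes.
DAAM1, iBRG1, chr14:59745018-59745218: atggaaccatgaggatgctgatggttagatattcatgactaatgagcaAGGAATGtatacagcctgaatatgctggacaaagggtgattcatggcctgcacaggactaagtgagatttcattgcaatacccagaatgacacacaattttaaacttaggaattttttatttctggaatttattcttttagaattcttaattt
PPP4R1, iBRG1, chr18:9643745-9643945: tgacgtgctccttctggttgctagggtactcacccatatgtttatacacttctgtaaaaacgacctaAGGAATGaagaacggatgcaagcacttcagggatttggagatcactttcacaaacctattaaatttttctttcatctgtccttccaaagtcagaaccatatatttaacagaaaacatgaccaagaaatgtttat
KTN1, iBRG1, chr14:56076604-56076804: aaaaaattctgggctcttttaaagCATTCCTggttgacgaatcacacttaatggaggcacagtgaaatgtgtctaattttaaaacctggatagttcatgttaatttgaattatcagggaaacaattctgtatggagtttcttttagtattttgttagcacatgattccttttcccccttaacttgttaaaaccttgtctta
RASAL2, iBRG1, chr1:178096693-178096893: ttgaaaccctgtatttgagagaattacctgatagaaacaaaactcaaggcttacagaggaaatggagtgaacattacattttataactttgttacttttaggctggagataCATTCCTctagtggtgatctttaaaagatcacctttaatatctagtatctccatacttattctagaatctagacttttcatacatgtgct
ATF3, iBRG1, chr1:212770112-212770312: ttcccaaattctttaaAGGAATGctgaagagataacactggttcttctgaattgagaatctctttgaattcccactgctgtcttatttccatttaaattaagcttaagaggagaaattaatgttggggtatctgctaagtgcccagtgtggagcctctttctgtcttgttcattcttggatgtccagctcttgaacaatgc

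Peaks of high score in 1 list with no overlapping peak in the other are shown next, from introns of CLIP4, which encodes a CAP-Gly domain protein, ADARB2, a relative of the RNA-editing enzymes, and SLC44A5, a choline transporter-like gene. Capitals again mark M-CAT. The ADARB2 window consists largely of short units such as tcat and actcat, and the SLC44A5 window ends in runs of gt and ta.
CLIP4, iBRG1, chr2:29346801-29347001: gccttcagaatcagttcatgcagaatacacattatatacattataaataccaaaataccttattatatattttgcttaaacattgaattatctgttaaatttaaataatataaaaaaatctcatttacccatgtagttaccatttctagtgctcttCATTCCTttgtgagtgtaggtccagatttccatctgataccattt
ADARB2, i∆HSA, chr10:1541261-1541461: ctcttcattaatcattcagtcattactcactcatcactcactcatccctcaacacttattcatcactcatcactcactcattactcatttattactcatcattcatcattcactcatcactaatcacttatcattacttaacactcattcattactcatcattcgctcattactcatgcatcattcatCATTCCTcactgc
SLC44A5, i∆HSA, chr1:75745693-75745893: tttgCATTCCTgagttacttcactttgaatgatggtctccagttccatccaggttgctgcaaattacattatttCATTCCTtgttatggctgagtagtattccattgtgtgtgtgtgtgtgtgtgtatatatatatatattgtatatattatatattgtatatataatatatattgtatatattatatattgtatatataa

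A few windows held 3 or more M-CAT, and those below show such runs. In the i∆HSA windows in introns of TMTC2 and CYP4F12, a cytochrome P450 gene, the elements were units of a tandem repeat, and the iBRG1 window, with 4 elements on 1 strand, lay 293 kb from the start of PIK3C3.
TMTC2, i∆HSA, chr12:83294145-83294345: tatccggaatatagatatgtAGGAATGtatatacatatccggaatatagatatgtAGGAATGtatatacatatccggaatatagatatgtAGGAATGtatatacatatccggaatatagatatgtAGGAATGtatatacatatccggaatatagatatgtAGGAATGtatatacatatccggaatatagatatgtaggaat
CYP4F12, i∆HSA, chr19:15787725-15787925: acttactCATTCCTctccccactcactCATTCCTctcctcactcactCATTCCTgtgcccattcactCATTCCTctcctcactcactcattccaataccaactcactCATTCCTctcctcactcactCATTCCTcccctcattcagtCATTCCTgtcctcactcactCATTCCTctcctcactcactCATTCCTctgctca
PIK3C3, iBRG1, chr18:39910455-39910655: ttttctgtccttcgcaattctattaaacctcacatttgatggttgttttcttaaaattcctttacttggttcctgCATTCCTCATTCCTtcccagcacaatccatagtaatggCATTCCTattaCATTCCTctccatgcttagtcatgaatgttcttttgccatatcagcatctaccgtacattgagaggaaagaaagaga

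The last windows were in an intron of TEAD1 and at a place 34.2 kb from JUN, which encodes an AP-1 subunit, where the window held 2 M-CAT in opposite orientation.
TEAD1, iBRG1, chr11:12890187-12890387: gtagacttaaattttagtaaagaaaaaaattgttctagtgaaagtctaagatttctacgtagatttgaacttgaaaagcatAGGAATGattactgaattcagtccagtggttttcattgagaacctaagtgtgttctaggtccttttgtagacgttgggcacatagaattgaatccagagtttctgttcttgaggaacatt
JUN, iBRG1, chr1:59283812-59284012: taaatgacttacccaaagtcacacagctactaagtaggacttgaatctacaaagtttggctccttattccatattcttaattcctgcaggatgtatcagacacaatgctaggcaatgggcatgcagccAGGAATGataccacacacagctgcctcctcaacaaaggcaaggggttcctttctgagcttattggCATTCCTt

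**Figure D1:**
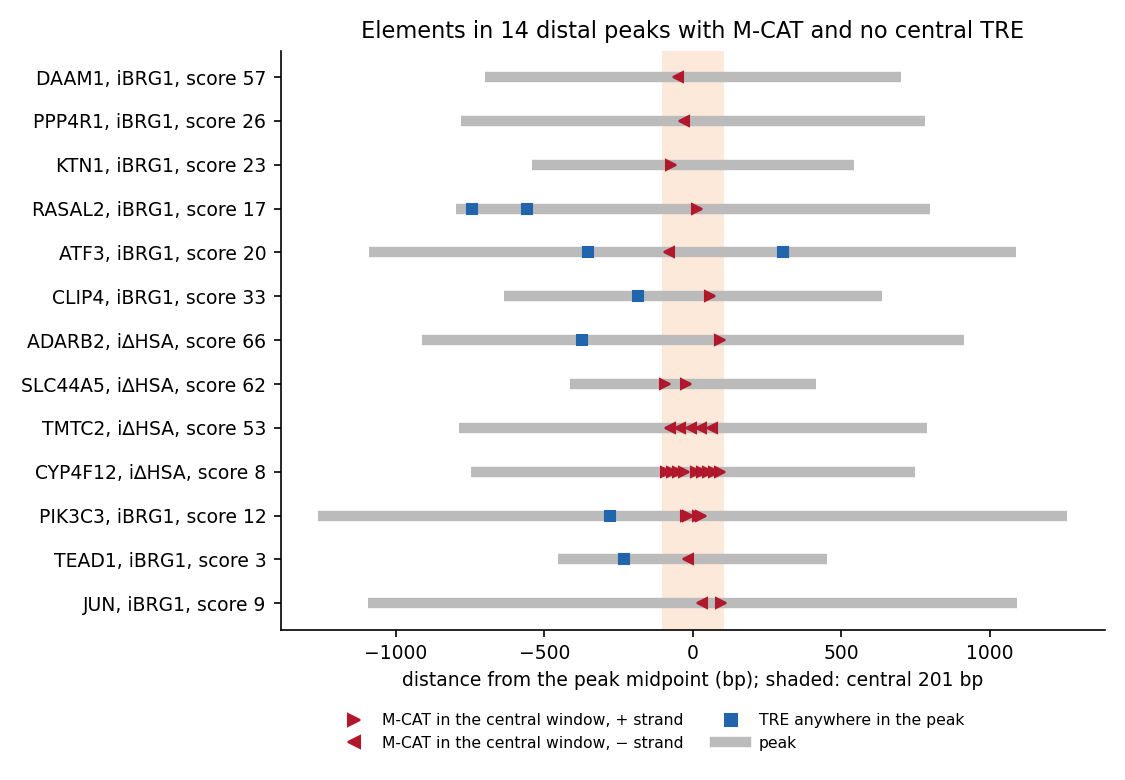
The peaks whose sequences are shown, 1 per row, drawn as grey bars on an axis of distance in bp from the peak midpoint; red triangles mark M-CAT in the shaded central window, pointing in the direction of their strand, and blue squares mark a TRE anywhere in the peak. The TMTC2 and CYP4F12 rows hold 5 and 9 elements on 1 strand, and 6 of the peaks drawn had a TRE outside the window.

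M-CAT peaks made up 4.45% (4.17 to 4.75) of the 19423 distal peaks of iBRG1 and 3.68% (3.43 to 3.95) of the 19876 distal i∆HSA peaks. The same rule applied to windows 2 kb to either side of those peaks gave 4.02% (3.83 to 4.22) for iBRG1 and 3.72% (3.53 to 3.91) for i∆HSA. Over the whole genome, cut into windows of the same length, 4.04% met it. The iBRG1 share at the centre was thus a little above its surroundings, with intervals that overlapped, and the i∆HSA share was not. These shares carry no limit on base composition, which is taken up below. Among peaks with a deposited score of at least 5, a score being the authors' whole number for each peak on a scale not stated, the iBRG1 share at the centre was 5.13% (4.56 to 5.78) against 3.97% (3.61 to 4.37) at 2 kb. The i∆HSA share was 3.57% (3.18 to 4.01) against 3.48% (3.20 to 3.78).

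To see at what distance from the midpoint the element lay, the number of M-CAT per kb was taken by distance from the midpoint, over distal peaks with no TRE in the window. In iBRG1 the density was 0.268 per kb (0.244 to 0.293, exact Poisson) within 50 bp of the midpoint and 0.230 (0.223 to 0.237) at 500 to 1000 bp, a ratio of 1.17. The rise was not a narrow one, since the ratio was 1.18 at 100 to 250 bp and 1.07 at 250 to 500 bp. In i∆HSA the density within 50 bp was 0.214 (0.193 to 0.236) and at 500 to 1000 bp 0.205 (0.198 to 0.211), a ratio of 1.04. Raising the score limit to 5 took the ratio within 50 bp to 1.35 in iBRG1 and left it at 1.03 in i∆HSA.

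M-CAT was denser at the centre than around it in shared peaks of both lists and in iBRG1-only peaks. Shared here means that 1 bp or more of the peak was also covered by the other list. With the density within 250 bp set over that at 500 to 2500 bp, shared peaks gave 1.44 (1.30 to 1.59, counting error on a log scale) in iBRG1 and 1.42 (1.29 to 1.57) in i∆HSA. Peaks found in 1 list only gave 1.20 (1.14 to 1.26) in iBRG1 and 0.979 (0.929 to 1.03) in i∆HSA. Among i∆HSA-only peaks with a score of at least 5 the ratio was 0.872 (0.788 to 0.964), while iBRG1-only peaks of that score had 1.28 (1.15 to 1.43). CATTCCA, the other common spelling of the element, followed the same order, at 1.51 (1.36 to 1.67) in shared and 1.21 (1.15 to 1.27) in iBRG1-only peaks, and 1.24 (1.11 to 1.38) in shared and 0.977 (0.924 to 1.03) in i∆HSA-only peaks.

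Base composition moved with these values. Mean GC within 250 bp of the midpoint was 38.4% in iBRG1-only and 36.3% in i∆HSA-only peaks, and 40.3% and 41.3% in their surroundings. The element read backwards, TCCTTAC, which has the same bases, had ratios of 0.979 (0.909 to 1.06) and 0.898 (0.831 to 0.970) in those peaks. Keeping only peaks of 30 to 50% GC at the centre brought the backward word to 0.997 and 0.996. M-CAT then stood at 1.24 (1.18 to 1.31) in iBRG1-only peaks, 1.08 (1.02 to 1.14) in i∆HSA-only peaks, and 1.58 (1.42 to 1.75) and 1.53 (1.38 to 1.71) in the shared peaks of each list. The TRE itself is a yardstick: over all distal peaks its ratio was 2.65 (2.57 to 2.74) in iBRG1 and 2.01 (1.93 to 2.08) in i∆HSA, and in shared peaks 3.61 and 3.71.

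**Figure D2:**
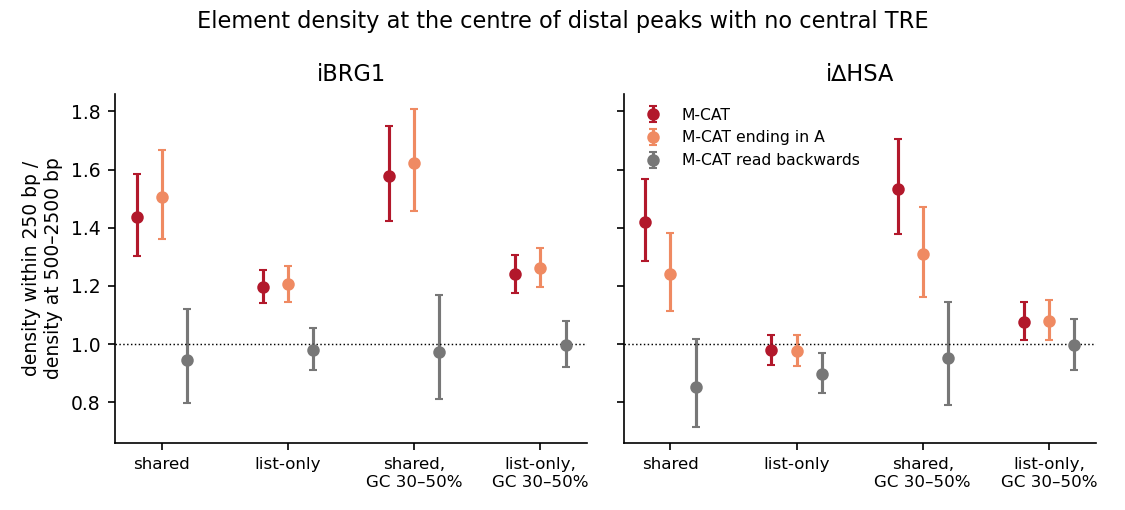
Density within 250 bp of the midpoint divided by density at 500 to 2500 bp (vertical axis, dotted line at 1) for M-CAT, its spelling ending in A, and M-CAT read backwards, in distal peaks with no TRE in the central window, with 95% counting intervals, for all such peaks and for those of 30 to 50% GC at the centre. M-CAT lies at 1.44 and 1.42 in shared peaks of iBRG1 and i∆HSA, at 1.20 in iBRG1-only peaks and at 0.979 in i∆HSA-only peaks.

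Copies of repeated DNA were counted as well. The 25 bases around an element, 9 on each side, occurred once in the genome for 801 of the 864 iBRG1 and 649 of the 731 i∆HSA M-CAT peaks. A window with several elements was given the lowest count among them. The CYP4F12 window, whose elements had 1 to 81 copies, thus counts as 1 copy. They occurred 10 or more times for 24 (2.78%, 1.87 to 4.10) and 40 (5.47%, 4.04 to 7.37) of them. Of those repeated ones 2 of 24 and 5 of 40 were shared, against 161 of 801 (20.1%, 17.5 to 23.01) and 157 of 649 (24.2%, 21.1 to 27.6) of the peaks with 1 copy. Repeated M-CAT were less dense within 250 bp of iBRG1 midpoints than around them, at a ratio of 0.592 (0.461 to 0.761), and in i∆HSA the ratio was 0.986 (0.816 to 1.19). M-CAT with under 10 copies had ratios of 1.28 (1.22 to 1.34) in iBRG1 and 1.06 (1.01 to 1.11) in i∆HSA.

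Sharing between the constructs was compared among distal peaks. Of all distal peaks 18.1% in iBRG1 and 17.7% in i∆HSA were shared. M-CAT peaks were shared in 169 of 864 cases (19.6%, 17.05 to 22.3) in iBRG1 and 170 of 731 (23.3%, 20.3 to 26.5) in i∆HSA. Peaks with neither element were shared in 17.05% (16.5 to 17.6) and 15.9% (15.3 to 16.4). The difference between M-CAT peaks and peaks with neither was 2.51 percentage points in iBRG1 (-0.194 to 5.22, normal approximation), and 7.39 points in i∆HSA (4.28 to 10.5). The iBRG1 interval includes 0, and under 9 of 16 other settings it did not, for example 0.755 to 5.36 with a reciprocal overlap of 50% and 0.390 to 6.46 with a window GC of 30 to 50%. Those 9 include the setting where the overlapping peak had to be an M-CAT peak. It favours M-CAT peaks by its rule, since overlapping peaks can hold the same element. A central TRE went with more sharing: 26.7% (24.7 to 28.9) and 38.9% (36.2 to 41.7) with the TRE alone, and 32.5% (24.8 to 41.3) and 52.9% (43.3 to 62.3) where both elements were present. M-CAT without a TRE thus sat between peaks with neither element and peaks with a TRE in both lists.

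Scores followed a similar order in iBRG1, and over all distal peaks not in i∆HSA. Of all distal peaks 25.7% in iBRG1 and 38.3% in i∆HSA had a score of at least 5. M-CAT peaks reached it in 29.6% (26.7 to 32.8) of iBRG1 cases and 37.2% (33.8 to 40.8) of i∆HSA cases, peaks with neither in 23.8% (23.2 to 24.4) and 37.4% (36.7 to 38.1), and TRE-only peaks in 40.3% (37.99 to 42.6) and 50.95% (48.1 to 53.8). Limited to a window GC of 30 to 50%, i∆HSA peaks took the same order as iBRG1. The shares were 37.6% (33.7 to 41.7) with M-CAT, 34.03% (33.15 to 34.93) with neither and 52.9% (49.7 to 56.1) with the TRE alone. The intervals of M-CAT and neither peaks overlapped there. The median score of M-CAT peaks was 3 in iBRG1, where all distal peaks had 2, and 4 in i∆HSA, the same as all distal peaks. Their highest scores were 57 and 88. Very AT-rich peaks, under 25% GC, were 1 of 864 iBRG1 and 10 of 731 i∆HSA M-CAT peaks, and 204 and 1126 of all distal peaks, most of the latter with neither element. None of the 10 was shared.

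Sharing was higher at high scores in M-CAT, TRE-only and neither peaks. Among M-CAT peaks of iBRG1 it went from 5.88% (3.60 to 9.48) at scores of 0 and 1 to 26.4% (19.9 to 34.1) at 5 to 9, 62.5% (51.6 to 72.3) at 10 to 19 and 75.0% (57.9 to 86.8) at 20 and over, where there were 32 peaks. In i∆HSA it did not rise over the low scores, with 10% (3.46 to 25.6) of 30 peaks at a score of 1, 9.04% (5.64 to 14.2) at 2 and 10.7% (7.47 to 15.1) at 3 and 4, and was then 29.9% (22.99 to 37.8), 54.3% (42.7 to 65.4) and 74.1% (61.6 to 83.7) in the same bands. In iBRG1 peaks with neither element lay within the M-CAT intervals in all bands but that of 10 to 19, where they had 50.05%. In i∆HSA they lay lower, at 20.4%, 37.1% and 51.03% (48.4 to 53.6) in the top 3 bands. Limiting that top band to a window GC of 30 to 50% gave 71.4% (67.8 to 74.7) for neither and 75.5% (61.9 to 85.4) for M-CAT peaks, so the gap at high score was smaller with that limit.

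**Figure D3:**
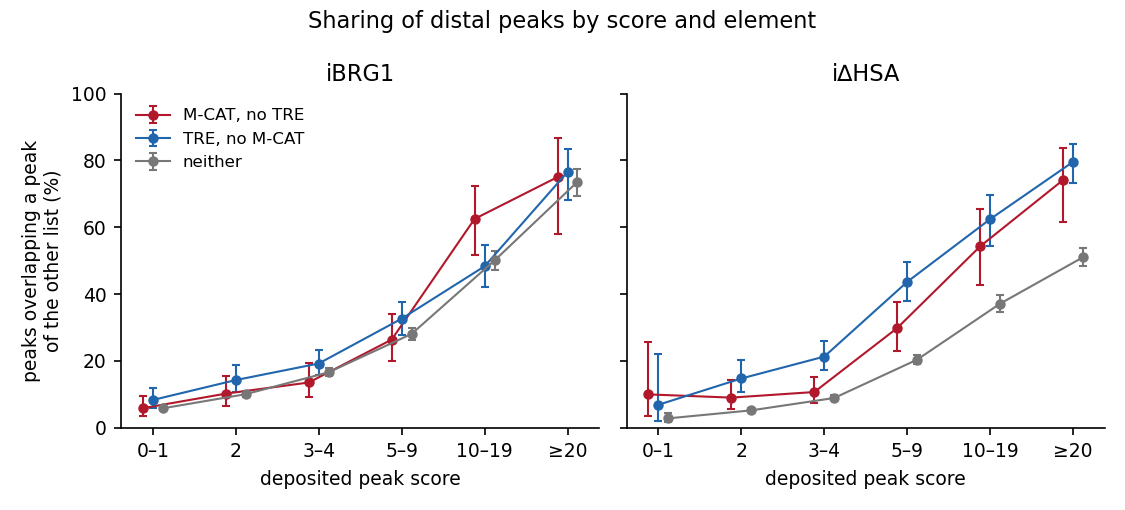
Percent of distal peaks that overlapped a peak of the other list (vertical axis) in bands of the deposited score (horizontal axis), for peaks with M-CAT and no TRE, TRE and no M-CAT, and neither, with 95% Wilson intervals. M-CAT peaks of i∆HSA stay between 9.04% and 10.7% below a score of 5, and at 20 and over M-CAT peaks stand at 75.0% in iBRG1 and 74.1% in i∆HSA.

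A TRE lay elsewhere in the peak for 310 of the 864 iBRG1 M-CAT peaks and 211 of the 731 i∆HSA ones, beside 5874 of the 16711 and 4529 of the 17838 peaks with neither central element. Those M-CAT peaks were shared in 32.3% (27.3 to 37.7) and 49.8% (43.1 to 56.5) of cases, and peaks with M-CAT and no TRE anywhere in 12.5% (9.96 to 15.5) of 554 and 12.5% (9.93 to 15.6) of 520. Peaks with a TRE elsewhere were also wider, with medians of 1718 and 1947 bp against 954 and 890.5 bp, and a wider peak has more room for a TRE and for an overlap. Peaks with neither central element did the same, at 28.8% (27.6 to 30.0) with a TRE elsewhere and 10.7% (10.1 to 11.3) without in iBRG1, and 36.7% (35.4 to 38.2) and 8.77% (8.30 to 9.26) in i∆HSA. Of M-CAT peaks with no TRE at all, the iBRG1 value thus overlapped that of neither, and the i∆HSA interval lay above it.

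The comparison was repeated with a TRE beyond the window but within 500 bp of the midpoint, a span that does not depend on peak width, within 3 width groups of equal size. In the widest group, iBRG1 M-CAT peaks with such a TRE were shared in 40 of 80 cases (50.0%, 39.3 to 60.7) and those without in 52 of 197 (26.4%, 20.7 to 33.0). The i∆HSA values were 40 of 68 (58.8%, 47.0 to 69.7) and 56 of 174 (32.2%, 25.7 to 39.5). In the middle group the i∆HSA values were 45% (33.1 to 57.5) and 16.2% (11.4 to 22.4), and those of iBRG1, 27.4% (19.8 to 36.5) and 18.1% (13.7 to 23.7), overlapped. A neighbouring TRE went with more sharing at a given width in all 6 groups, and the median score was higher in 5 of them, for example 5.5 against 3 in the widest iBRG1 group and 7.5 against 4 in the widest i∆HSA group. In the middle iBRG1 group it was 3 with and 3 without.

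**Figure D4:**
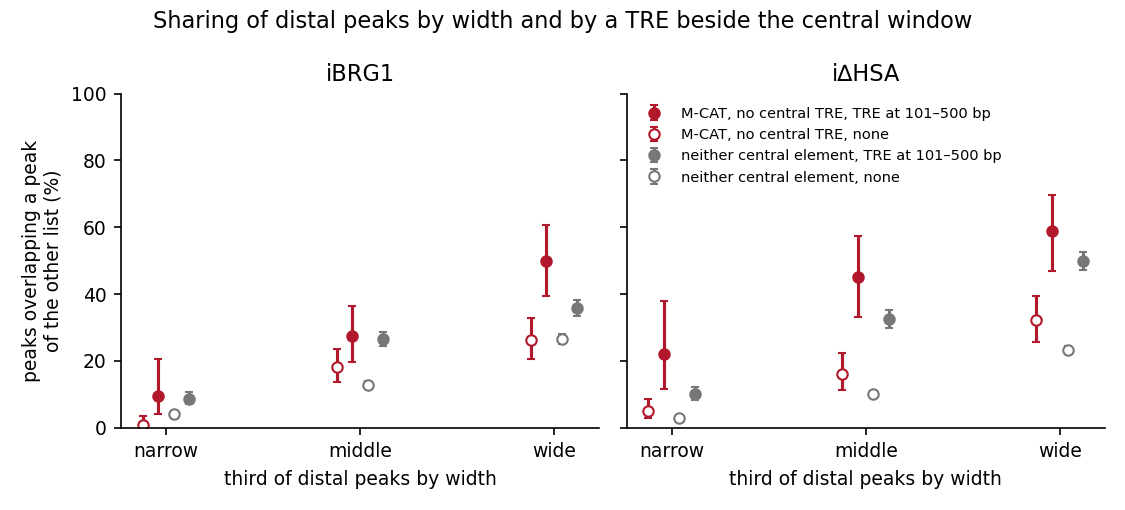
Percent of distal peaks shared with the other list (vertical axis) in 3 groups of equal size by peak width, for peaks with M-CAT and no central TRE (red) and with neither central element (grey), with a TRE beyond the window but within 500 bp of the midpoint (filled) or without (open); bars are 95% Wilson intervals. Filled points lie above open ones of the same colour in every group, at 50.0% against 26.4% for wide iBRG1 M-CAT peaks and 58.8% against 32.2% for wide i∆HSA ones.

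Few shared peaks had their M-CAT in the central window of both lists. Of the 169 and 170 shared M-CAT peaks only 34 in each overlapped an M-CAT peak of the other list. For 125 and 123 of them an overlapping peak was distal, and no distal overlapping peak held M-CAT in its central window. Whether those windows held a TRE was not counted. In 6 and 6 cases the window of a distal overlapping peak held both M-CAT and a TRE. In 4 and 7 every overlapping peak came within 1 kb of a transcript start. Midpoints of shared M-CAT peaks and their partners were a median of 318 and 327.5 bp apart, against 376 and 373 bp for all shared distal peaks, so the window often covered different DNA in the 2 lists. The median was 61 bp for the 34 pairs, and 29 of them had the same element in both windows.

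The 34 pairs had scores of 2 to 57 in iBRG1 (median 11) and 2 to 88 in i∆HSA (median 11). All lay in introns (24) or between genes (10), and 14 had no TRE in either peak. The DAAM1 pair had the highest score of any M-CAT peak in each list, 57 and 88. Its peaks, chr14:59744417-59745819 and chr14:59744417-59745650, began at the same base, 14.95 and 14.86 kb from the nearest protein-coding transcript start, and neither held a TRE. The second pair, 83.6 kb from FNDC3A, had scores of 34 and 56, with 3 and 4 TRE elsewhere in the peaks. PPP4R1 followed with 26 and 53, and KTN1, 1.99 kb from a protein-coding start, with 23 and 22.

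Some pairs differed in score between the lists, and SPIDR, THRAP3, LHFPL6 and RUNX2 are named here after their values were seen. At THRAP3, a gene of the transcription and splicing machinery, the iBRG1 score was 7 and the i∆HSA score 42. At LHFPL6 the scores were 4 and 26. At OSGIN2 and SPIDR they went the other way, at 30 and 9, and 26 and 9. In ATF3 both peaks, with scores of 20 and 18, held an M-CAT at the centre but not the same one, and both held a TRE elsewhere. RUNX2, a bone and cartilage transcription factor, had scores of 3 and 8. Scores come from separate peak calls and their scale may differ between lists, so they do not compare amounts across lists. Score and rank within a list also did not go together. For example, the KTN1 scores of 23 and 22 were ranks 497 in iBRG1 and 1690 in i∆HSA. The DAAM1 scores of 57 and 88 were ranks 27 and 206.

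**Figure D5:**
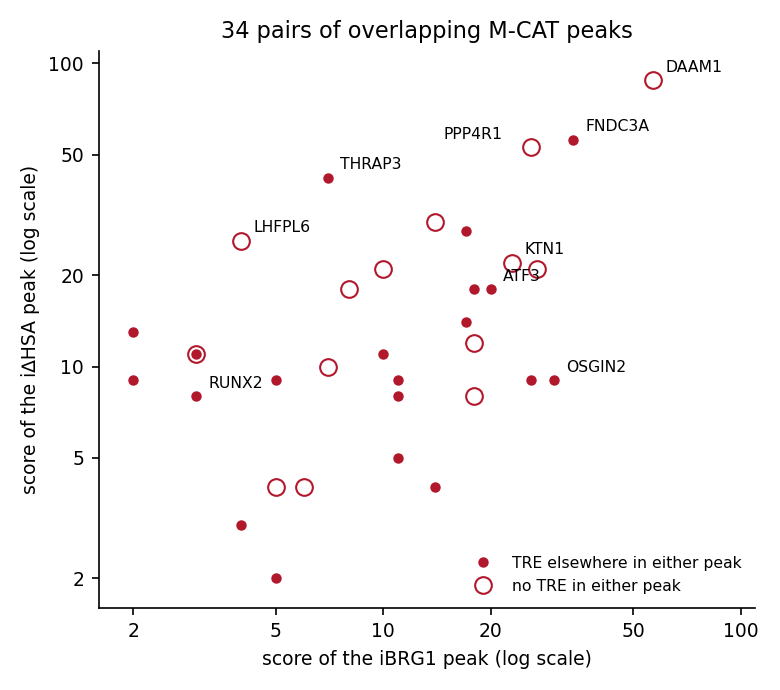
Scores of the iBRG1 peak (horizontal, log scale) and the i∆HSA peak (vertical, log scale) for the 34 overlapping pairs in which both were M-CAT peaks; filled points had a TRE elsewhere in either peak and open circles had none, with 1 of each at 3 and 11. DAAM1, at 57 and 88, stands above the others in both lists and holds no TRE.

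Among the 10 highest-scoring M-CAT peaks of each list, 9 were shared in iBRG1 and 7 in i∆HSA. The iBRG1 set after DAAM1 included introns of ANO4 (53, i∆HSA score 25) and SPIRE1, an actin nucleator (47, i∆HSA score 4). CLIP4 (33) was the one with no i∆HSA peak. The i∆HSA set included introns of MACF1, which links actin and microtubules (58, iBRG1 score 27), and SLC38A1, an amino acid transporter (52, iBRG1 score 21). ADARB2 (66), SLC44A5 (62) and TMTC2 (53) had no iBRG1 peak, and all 3 windows shown above consist in part of simple or repeated sequence: 25-base words around the SLC44A5 elements had 2 and 15 copies in the genome, and those of TMTC2 had 14.

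A second M-CAT in the window was uncommon. There was 1 element in 833 iBRG1 and 692 i∆HSA peaks and 2 in 30 and 36. Peaks with 2 or more were shared in 11 of 31 cases (35.5%, 21.1 to 53.1) in iBRG1, against 18.97% (16.5 to 21.8) with 1, and in 11 of 39 (28.2%, 16.5 to 43.8) in i∆HSA, against 22.98% (20 to 26.3). Elements were a median of 55 and 67 bp apart on the same strand and 40.5 and 41 bp on opposite strands, and no distance came up more than 2 times in any of these sets. The strand of single elements was even, with 401 and 432 in iBRG1 and 338 and 354 in i∆HSA. Distance of the element from the midpoint made little difference within the window, since 18.5% (14.1 to 23.9) of iBRG1 peaks with M-CAT within 25 bp and 18.9% (13.9 to 25.0) of those at 76 to 97 bp were shared.

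The TMTC2, CYP4F12 and PIK3C3 windows with more elements belonged to peaks that were not shared. TMTC2 (score 53) held 5 in steps of 35 bp and 20 over the whole peak. CYP4F12 (8) held 9, in steps of 20 bp with 1 of 40 bp, and 61 over the peak. The iBRG1 peak nearest PIK3C3 (12) held 4 in the window and none elsewhere, at steps of 7, 31 and 11 bp, and its 25-base words occurred once in the genome.

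The base before the element in M-CAT peaks differed from that of M-CAT 1.5 to 2.5 kb from the midpoints of all distal peaks. There were 8131 such outer elements in iBRG1 and 8219 in i∆HSA. An A stood there in 30.8% (27.8 to 33.9) of 897 elements in iBRG1 and 27.9% (24.9 to 31.2) of 788 in i∆HSA, against 23.8% (22.9 to 24.7) and 23.4% (22.5 to 24.4) away from the peaks. A C stood there in 19.3% and 17.5%, against 24.9% in both lists. In distal peaks with no central TRE, mean GC was also lower at the centre than around it. It was 38.3% against 40.4% in iBRG1 and 36.5% against 41.3% in i∆HSA. Other positions moved too: C just after the element was 15.2% against 20.7% in i∆HSA, but 20.85% against 19.96% in iBRG1. Whether base composition accounts for the A was not tested. The intervals treat elements that share a window as independent, and single i∆HSA windows held 5, 9 and 10 of the 788. ACATTCCT is the fuller form often given for TEAD sites. The longer CACATTCCT was found in 9.14% (7.43 to 11.2) and 8.12% (6.41 to 10.2) of elements, against 6.64% (6.12 to 7.20) and 6.69% (6.17 to 7.25).

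Most other motifs searched had shares that overlapped those of peaks with neither element. On both strands and with overlaps allowed, the NFI half-site TGCCAA was in 12.85% (10.8 to 15.2) of iBRG1 and 13.1% (10.9 to 15.8) of i∆HSA M-CAT peaks, against 11.03% (10.6 to 11.5) and 9.22% (8.80 to 9.65) of peaks with neither and 10.1% (8.79 to 11.6) and 10.5% (8.998 to 12.1) of windows 2 kb from the M-CAT peaks. The SOX element AACAATG was in 4.75% (3.52 to 6.37) and 6.29% (4.75 to 8.29), against 4.58% (4.27 to 4.91) and 4.45% (4.15 to 4.76) of peaks with neither. In windows 2 kb from the M-CAT peaks it was in 3.70% (2.91 to 4.70) and 3.35% (2.54 to 4.40). Only the i∆HSA interval there lay clear of that of the M-CAT peaks. CAAGGTCA, the site of the adrenal factor NR5A1, was in 14 and 8 peaks, 1.62% (0.968 to 2.70) and 1.09% (0.556 to 2.15), against 1.16% (1.00 to 1.33) and 1.07% (0.930 to 1.23). The RUNX core TGTGGT, the GATA site AGATAA, the FOX site TGTTTAC, the CEBP site TTGCGCAA, the CRE TGACGTCA, the E-boxes CACGTG and CAGCTG, the ETS site ACAGGAAG and the CArG box had intervals that overlapped those of peaks with neither in both lists, and so did the steroid receptor half-site AGAACA in iBRG1. In i∆HSA that half-site was in 17.5% (14.9 to 20.4) against 13.9% (13.4 to 14.5). At 2 kb it was in 15.3% (13.6 to 17.3), an interval that overlapped that of the M-CAT peaks. The i∆HSA peaks with neither element are also more AT-rich, with a median window GC of 35.8% against 38.3%. CATTCCA stood beside CATTCCT in 40 and 33 windows, of which 6 (15%, 7.06 to 29.1) and 15 (45.5%, 29.8 to 62.0) were shared.

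M-CAT peaks lay where other distal peaks lay. By their midpoint 61.5% (58.2 to 64.7) of iBRG1 and 59.8% (56.2 to 63.3) of i∆HSA M-CAT peaks were in introns and 34.5% (31.4 to 37.7) and 36.5% (33.1 to 40.1) between genes, where all distal peaks had 62.5% and 60.04% in introns and 33.85% and 36.7% between genes. Their median distance to a protein-coding transcript start was 44.7 kb in iBRG1, against 43.4 kb for all distal peaks, and 33.6 kb in i∆HSA, against 36.5 kb. Among the 23 chromosomes with at least 100 distal peaks, their share ran from 3.53% on chromosome 17 to 7.44% (3.96 to 13.5) on chromosome 22 in iBRG1. In i∆HSA it ran from 2.89% on chromosome 21 to 6.40% (4.49 to 9.04) on chromosome 20, where iBRG1 had 3.76% (2.33 to 6.01).

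Genes were then listed by an M-CAT peak within the gene or 50 kb of it. There were 992 such genes for iBRG1 and 1035 for i∆HSA among 20136 protein-coding genes, 4.93% and 5.14%, and 158 genes had one in both lists, 15.9% of those for iBRG1 and 15.3% of those for i∆HSA. Of 22 genes of a YAP-TEAD signature, iBRG1 peaks were at 3 and i∆HSA peaks at 2. The iBRG1 ones were ASAP1, an ARF GTPase-activating protein, in an intron with a score of 10, NT5E, the ecto-nucleotidase CD73, and RBMS3. The NT5E peak lay in the neighbouring gene SNX14 with a score of 16, and RBMS3 had 2 peaks of scores 5 and 4. Overlapping i∆HSA peaks had scores of 6 at ASAP1, 3 at SNX14 and 8 at the first RBMS3 peak. The other RBMS3 peak had no overlap. The i∆HSA ones were 39.9 kb from ASAP1 (score 7) and in NUAK2, a kinase induced by YAP (score 6). The ASAP1 one had no iBRG1 overlap, and the NUAK2 one was overlapped by an iBRG1 peak with a score of 7.

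Of 24 Hippo pathway and TEAD genes, 2 had an iBRG1 M-CAT peak. TEAD1 had 1 with a score of 3, and AMOTL1, an angiomotin that holds YAP outside the nucleus, had 2 with scores of 9 and 1. TAOK1, an upstream kinase of the pathway, was the only one with an i∆HSA M-CAT peak (score 3). None of these 4 peaks had an overlapping peak in the other list. Of 12 muscle genes known for M-CAT elements none had an iBRG1 M-CAT peak, and ACTA2, smooth muscle actin, had 2 i∆HSA ones with scores of 3 and 2.

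Of 20 focal adhesion and actin genes, 3 had an M-CAT peak in each list. PTK2, the focal adhesion kinase, had an iBRG1 peak with a score of 24, overlapped by an i∆HSA peak with a score of 17. Elsewhere in the gene it had an i∆HSA one with a score of 10, overlapped by an iBRG1 peak with a score of 5. LPP, a zyxin relative, had an iBRG1 peak with a score of 21, overlapped by an i∆HSA peak with a score of 9, and an i∆HSA one elsewhere with a score of 3, and CALD1, caldesmon, had 1 with a score of 2. PXN, paxillin, had an i∆HSA peak with a score of 4, overlapped by an iBRG1 peak with a score of 3. Of 10 genes for AP-1 factors, ATF3 had M-CAT peaks in both lists, among them a second iBRG1 one with a score of 4, JUN in iBRG1 (score 9) and FOSL1 in i∆HSA (score 2, with DRAP1 nearer). Of 9 genes that the study followed by PCR, SPARC, a matrix glycoprotein, had 1 iBRG1 M-CAT peak with a score of 1. These counts are small, and the lists differ in gene length, whose part in the counts was not tested. The median gene length was 27.2 kb over all genes and 44.4 kb for the YAP-TEAD list. It was 104 kb for the Hippo and TEAD list, 98.1 kb for the focal adhesion list, and 7.86 to 20.75 kb for the other lists.

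Values at the limits of the rule are given as a description. Of iBRG1 peaks with no central TRE, 41 had M-CAT centred 93 to 97 bp from the midpoint, just inside the window, with a median score of 3, and 46 had it from 98 bp on, at most 5 bp past that limit, with a median of 2. The i∆HSA numbers were 31 and 37, with medians of 3 and 4. Within 200 bp of the 1 kb limit, 9 iBRG1 peaks lay inside the rule and 19 outside, with median scores of 2 and 5, and 12 and 15 i∆HSA peaks, with 6 and 4. Just inside the distance limit lay an iBRG1 peak 1006 bp from a transcript start and 652 kb from ANKRD50 (score 1), and just outside it lay one 988 bp from a start in ATL1 (score 3).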

How the data were processed

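CUT&RUN with an antibody against V5 was done in 4 SW-13 samples, 2 per construct, from 300000 cells each with digestion for 30 min on ice and 12 PCR cycles. The authors trimmed reads with Cutadapt, aligned them to hg19 with Bowtie2, removed duplicates with Picard, used SAMtools and called peaks with MACS2 (version 2.2 in the submitters' processing notes). The deposited score column is a whole number per peak whose scale is not stated, and the lists hold 17637 iBRG1 and 14931 i∆HSA peaks with a score under 5, although the study's methods name a minimum score of 5. The lists used here are thus larger than that filter would leave, and most M-CAT peaks lie under it (values at a score of at least 5 are given beside the main ones). Whether replicates were pooled for peak calling is not given in the sources used here. The methods state a targeted depth, and the depth reached is unknown. Vehicle and negative control samples were not analysed here.

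Peak windows of 100 bp to either side of the midpoint were read from GRCh37, and transcript starts, genes and features from GENCODE release 44 mapped to that build. Of the distal i∆HSA peaks, 22 had unknown bases in the window and could hold no match. Matches were exact on both strands. Intervals are at the 95% level and peaks are not replicates. Python 3.11.15, numpy 2.4.6, scipy 1.17.1, pandas 2.3.3 and matplotlib 3.10.9 were used, and the counting steps were tested on simulated data.

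The M-CAT peaks, gene lists and comparisons were chosen with earlier results of these data known. Surroundings at 500 to 2500 bp, CATTCCA and the backward word as comparisons of density, the limits of 30 to 50% GC, the split by a TRE beside the window and width, and the count of genome copies were chosen after seeing the data. The reference does not mark repeats, so a planned share of repeat bases was not computed. Loci were named if they were among the 10 highest scores of a list, the 10 best-ranked pairs, windows with 3 or more M-CAT, at a gene of a list, or at the limits of the rule. One locus that meets this rule is not reported here.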

Additional observations from a re-analysis of the deposited data

How the results depend on the processing

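No paired analysis was possible because the 2 lists carry no value per replicate, which also left no way to drop a replicate. Most results given here kept their direction, and some in i∆HSA did not. The M-CAT ratio of i∆HSA-only peaks passed from 0.979 to 1.08 with the limit of 30 to 50% GC. Over distal i∆HSA peaks, shared or not, the share with a score of at least 5, M-CAT then neither, was 37.2% and 37.4%. It went to 37.6% and 34.03% with a window GC of 30 to 50%. The i∆HSA percent at the centre and at 2 kb went from 3.68 and 3.72 to 3.57 and 3.48 at a score of at least 5, with overlapping intervals. Numbers of M-CAT peaks, iBRG1 then i∆HSA, were 1626 and 1307 with CATTCCA added, 461 and 381 within 50 bp of the midpoint, 1828 and 1564 within 250 bp of it, and 256 and 272 at a score of at least 5, and 554 in iBRG1 with no TRE anywhere in the peak. Their percent of distal peaks was 8.37 and 6.58 with CATTCCA added, 4.13 and 3.06 with CATTCCA in its place, 2.37 and 1.92 within 50 bp, 9.41 and 7.87 within 250 bp, 5.07 and 4.19 with AP-1 peaks kept, and 2.85 and 2.62 with no TRE in the peak. In iBRG1 it was 5.13 at a score of at least 5 and 4.155 with any central base in the AP-1 element. The percent shared was 35.55 and 33.82 at a score of at least 5 in both lists, 12.45 and 12.5 with no TRE in the peak, 13.19 and 15.6 with reciprocal overlap of 50%, 12.5 and 14.36 with midpoints within 500 bp, and 3.935 and 4.651 where the overlapping peak had to be an M-CAT peak. In i∆HSA it was 19.87 with CATTCCA in place and 26.89 with AP-1 peaks kept. The i∆HSA difference from peaks with neither element was 14.43 points at a score of at least 5, 3.83 with CATTCCA in place, 3.73 with no TRE in the peak and 4.01 where the partner had to be an M-CAT peak. That last setting favours M-CAT peaks by its rule, since overlapping peaks can hold the same element, so nothing is concluded from it. The density ratio was 1.165 in iBRG1 with surroundings at 500 to 1000 bp, 1.41 in iBRG1 at a score of at least 5, and 1.30 and 1.16 at a centre GC of 30 to 50%. The cause of these moves was not tested beyond the fewer or more peaks each setting admits. The unknown depth reached and score scale limit any comparison of the lists.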
